A study of Homo sapiens with 18 samples.

Results

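H9 organoids that received dopamine every day for 1 week were compared with H9 organoids that received it for 1 hour, by bulk RNA sequencing. The comparison takes 6 of the 18 libraries of the series, 3 chronic ones (numbered 10, 11 and 12 in the labels) and 3 acute ones (13, 14 and 15), and no vehicle library enters it. H9 is a human embryonic stem cell line. Its cells, plated at 9000, were grown into neural organoids with a ventral forebrain protocol that uses sonic hedgehog protein at 100 ng/mL and the hedgehog agonist purmorphamine at 1 µM, and the libraries are labelled day 83. The acute group had a week of vehicle, 100 µM ascorbic acid, and then 1 µM dopamine for 1 hour. The chronic group had 1 µM dopamine daily for 1 week and a last dose of 1 hour. Both groups therefore ended on the same 1-hour dose, and the comparison asks what the preceding week of dopamine added. Ascorbic acid at 100 µM was present in every group. The other 12 libraries are 3 H9 vehicle libraries and 3 libraries each of chronic, acute and vehicle organoids of H1, another human embryonic stem cell line. Nothing in the labels says that libraries of the same group were grown as separate cultures, so each p-value measures only the spread between libraries, which may be technical.

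Dopamine acts on G protein-coupled receptors. The D1-type receptors DRD1 and DRD5 raise cyclic AMP, and the D2-type receptors DRD2, DRD3 and DRD4 lower it. In neurons with these receptors a first exposure can induce immediate early genes within the hour, and dopamine left in medium oxidises to reactive products. The regional identity of a cell in the developing brain is carried by its transcription factors: hedgehog signalling sets ventral identities, Wnt signals and the ZIC factors mark dorsal and midline tissue, EN1, EN2 and PAX5 mark the border of midbrain and hindbrain, and HOX genes mark the hindbrain and spinal cord. An organoid can hold patches of several such identities. In bulk RNA, fewer cells of a type and less RNA per cell cannot be told apart, and this applies to every result below.

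Total counts of the 6 libraries were 14858983 to 19291741. Levels are given as CPM, counts scaled to the library size by the TMM method, and 3 counts correspond to 0.156 to 0.202 CPM. The ventral neural identity given in the labels was visible in all 6 libraries. GAD1, the enzyme that makes the transmitter GABA, stood at 939, 747 and 929 CPM in the chronic libraries 10, 11 and 12 and at 678, 471 and 734 CPM in the acute libraries 13, 14 and 15. NKX2-1, a ventral forebrain and hypothalamic factor, stood at 58.6, 74.8 and 61.7 CPM against 55.9, 35.3 and 34.2 CPM, and DLX2, a subpallial factor, at 29.9, 39.8 and 32.6 CPM against 30.8, 17.9 and 23.6 CPM. None of these 3 passed the test, with adjusted p of 0.615, 0.334 and 0.633. NKX2-1 and DLX2 belong to a list of 32 ventral forebrain factors tested. Of these, 11 had positive and 21 negative log2 differences, chronic minus acute, with a median of -0.32.

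Some libraries stood apart from their group. Chronic library 11 lay at least 1 log2 unit below the other 5 in 252 of 12309 genes with a mean of at least 5 CPM and as far above them in 27, against 0 to 14 genes in either direction for any other library. Its departure followed gene length: against libraries 10 and 12 its median log2 difference was 0.48 in the shortest of 4 equal classes of genes by relative length and -0.53 in the longest. Among its lowest genes were TNR, a matrix glycoprotein of the nervous system, at 2.76 CPM against 30 to 54.3 in the other 5, and FRRS1L, an AMPA receptor auxiliary protein, at 3.03 against 26 to 50.8 CPM. Acute library 15 stood apart in few genes, above all HOX genes, with HOXB9 at 35.6 CPM against 0 to 1.72 in the other 5. Acute library 14 was highest by at least 1 log2 unit in 14 genes, among them the growth factor gene IGF2 at 26.3 CPM against 0.67 to 2.84. Acute library 13 held HBB, a haemoglobin gene, at 32 CPM against 0 to 0.138. Its sum over the 20 counted of 22 blood and microglia markers was 63 CPM against 5.52 to 10.8 in the other 5, with C1QC and HBG1 at 0 in all 6.

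**Figure D1:**
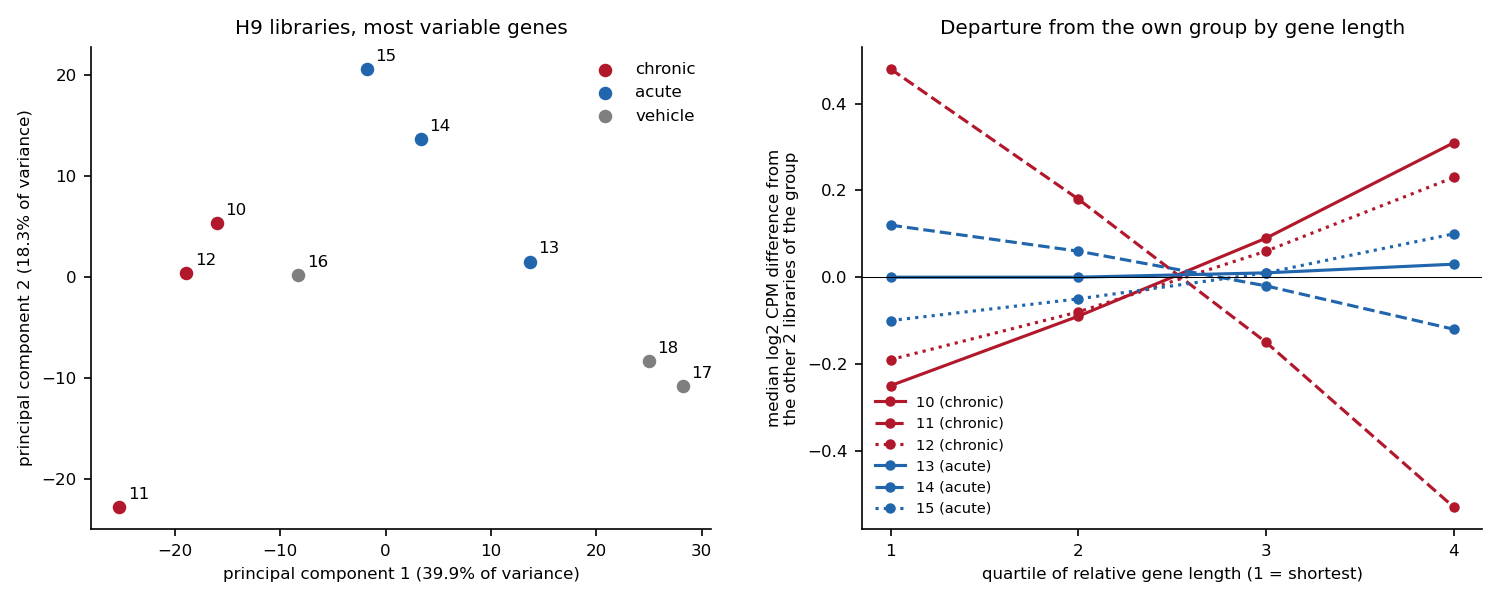
The left panel plots the first and second principal components of the 9 H9 libraries over the 500 most variable genes, coloured by group and labelled by library number. The right panel plots, for each of the 6 libraries compared, the median log2 CPM difference from the other libraries of its group in 4 equal classes of genes by relative length. Library 11 lies lowest on the second component at -22.75 and its line falls from 0.48 to -0.53, while the lines of the 3 acute libraries stay between -0.12 and 0.12.

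The difference between chronic and acute organoids lay mostly in genes that were lower after the week of dopamine. Those with the smallest p included the matrix gene FREM1 and several regional transcription factors. Of 17173 genes tested, 163 passed a Benjamini-Hochberg adjusted p under 0.05 in edgeR's quasi-likelihood test, 0.949% of the genes. Of these, 143 were lower in the chronic libraries, 0.833% of the genes, and 20 were higher, 0.116%. Chronic was at least 2-fold below acute in 113 of the 143 and at least 2-fold above it in 10 of the 20. The median log2 difference was -1.49 among the lower genes and 0.99 among the higher ones, against -0.01 over all genes tested. In 142 of the 143 lower genes all 3 chronic libraries lay below all 3 acute ones, a pattern that 10.6% of all genes showed. In all 20 higher genes the chronic libraries lay above, which 9.73% of all genes showed.

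Single libraries weighed unevenly in these calls. Library 14 was the highest of the 6 in 111 of the 143 lower genes, library 15 in 29 and library 13 in 3. Library 11 was the highest in 16 of the 20 higher genes. The H9 vehicle libraries, which took no part in the contrast, had a mean above every chronic library in 141 of the 143 lower genes, and a mean between all chronic and all acute libraries in 60. Among the higher genes the vehicle mean lay below every chronic library in 20 of 20. The genes were selected by their chronic and acute values, so these vehicle counts are partly fixed by that choice. The same shares over all genes were not computed, and the counts do not show which group changed. The vehicle levels of the genes that lead each group are given with them below.

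The number of genes passing depended on single libraries and on which libraries estimated the spread. The fit used all 18 libraries, among them an H1 vehicle library, number 9, that holds 43284 counts against at least 13647204 in any other. Without library 9 it called 254 genes, 38 higher and 216 lower. With library 10, 11, 12, 13, 14 or 15 left out, it called 126, 73, 47, 145, 48 or 100 genes in that order, and 97 without libraries 11 and 15 together, 6 of them higher and 91 lower. A fit of the 9 H9 libraries alone called 10 genes, and a fit of the 6 libraries alone called 3, which were PAX5, ZIC1 and ZIC2. The 10 included FREM1, FREM2, PAX5, ZIC1, WNT5A and PCDHGB1 among the lower genes, with ARHGAP36 and HCRT as the higher ones. Of 49 lower genes followed one by one, 20 passed whichever of the 6 libraries was left out, and of 16 higher genes none did. For the others, the libraries without which the call was lost are named below, with the range of the adjusted p over the 6 fits that each leave out 1 library.

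FREM1 had the smallest p of all genes. It encodes a matrix protein of the complex that anchors epithelia to the basement membrane. It stood at 1.44, 0.828 and 0.804 CPM in the chronic libraries, at 5.17, 7.39 and 6.19 in the acute ones and at 5.17, 8.57 and 5.65 in vehicle. The chronic libraries lay below both other groups, which overlapped. Chronic was 6.06-fold lower than acute, a log2 difference of -2.60 ± 0.28 (SE from the fit of 18 libraries, 3 against 3 compared, adjusted p = 0.000265). Its partner FREM2 stood at 3.94, 2.97 and 4.49 CPM against 11, 13 and 10.4 CPM, with vehicle at 10.6, 12.3 and 10.5 (log2 difference -1.59 ± 0.25, adjusted p = 0.00432). These 2 were the called members among 20 basement membrane genes tested, against 0.833% of all genes called lower. Of the 20, 19 had negative values with a median of -0.35, and 17 were negative without library 11.

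PAX5, a paired-box factor of the midbrain-hindbrain border that also acts in B cells, followed. It stood at 0.525, 0.345 and 0.871 CPM in the chronic libraries, at 10.6, 7.55 and 10.8 in the acute ones and at 3.16, 1.27 and 1.7 in vehicle. The 3 acute libraries stood close together and vehicle lay between the groups without overlap. The difference was 16.3-fold (log2 -4.03 ± 0.46, adjusted p = 0.000278). PAX7, a factor of the dorsal neural tube and midbrain, stood at 0.394, 0.345 and 0.134 CPM against 0.759, 9.05 and 3.16 CPM (log2 difference -3.88 ± 0.76, adjusted p = 0.0154). PAX3, a dorsal neural tube and neural crest factor, had 0 counts in all 3 chronic libraries and 0.483, 17.6 and 4.11 CPM in the acute ones (adjusted p = 0.0255). In both, library 14 was far above the other acute libraries. PAX7 lost its call without library 11, 12 or 14 (adjusted p 0.0013 to 0.187) and PAX3 without library 10, 11, 12 or 14 (adjusted p 0.00537 to 0.156). Of 6 PAX genes tested these 3 were called, against 0.833% of all genes called lower. PAX6, a factor of neural progenitors in many regions, had a log2 difference of -0.07 ± 0.21 (adjusted p = 0.913).

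ZIC1, ZIC2, ZIC4 and ZIC5 were lower in the chronic libraries. ZIC genes encode zinc-finger factors of the dorsal neural tube, known for their role in forebrain midline formation. ZIC1 stood at 4.86, 8.21 and 6.1 CPM in the chronic libraries, at 50.5, 34.3 and 66.8 in the acute ones and at 13, 37.7 and 15.6 in vehicle. Chronic lay below all vehicle and acute libraries, and vehicle library 17 exceeded acute library 14. Chronic was 7.9-fold lower than acute (log2 -2.98 ± 0.37, adjusted p = 0.000469). ZIC2 had 1, 2 and 1 counts in the chronic libraries and 3.52, 4.79 and 8.34 CPM in the acute ones (adjusted p = 0.000919). Vehicle held ZIC2 at 0.365, 3.94 and 1.28 CPM, with library 16 nearer to the chronic libraries. ZIC4 stood at 0.46, 0.621 and 1.68 CPM against 8.55, 4.84 and 12.4 CPM (log2 difference -3.21 ± 0.57, adjusted p = 0.00739). ZIC5 was the scarcest, with 1, 3 and 0 counts in the chronic libraries and 0.759, 0.833 and 1.77 CPM in the acute ones (adjusted p = 0.0211). Summed over these 4 genes, the chronic libraries held 5.45, 9.17 and 7.84 CPM, the acute ones 63.3, 44.8 and 89.3 and vehicle 14.4, 47.4 and 20.8. All 4 were called without library 11 and 2 without libraries 11 and 15. ZIC5 lost its call without library 10, 12 or 15 (adjusted p 0.02 to 0.0917). The ZIC, EBF, PAX and HOX lists, and those of clustered protocadherins and secretory granules, were drawn up after values were seen, so their counts only describe these families.

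The promoters of FREM1, PAX5 and ZIC1 are printed because these 3 are among the 4 genes of smallest p and kept their calls whichever library was left out. They come from RefSeq (GRCh38.p14), as 250 bases before to 50 after the gene start, 5′ to 3′ along the gene. FREM1 lies on the minus strand at chr9:14910946-14911245, PAX5 on the minus strand at chr9:37034219-37034518 and ZIC1 on the plus strand at chr3:147409115-147409414. Capitals mark matches, on either strand, to 6 short motifs: the cyclic AMP response element TGACGTCA, its shorter form TGACG, the antioxidant response core TGACNNNGC, the TATA box TATAAA, the CCAAT box and the homeodomain core TAATTA. The short form lies inside the full response element and can overlap the antioxidant core.
FREM1: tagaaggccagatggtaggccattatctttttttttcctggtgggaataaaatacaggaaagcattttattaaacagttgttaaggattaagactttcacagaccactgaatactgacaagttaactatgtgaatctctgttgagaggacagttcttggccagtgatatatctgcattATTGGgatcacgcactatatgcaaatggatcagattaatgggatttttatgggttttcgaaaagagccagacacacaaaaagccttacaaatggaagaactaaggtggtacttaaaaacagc
PAX5: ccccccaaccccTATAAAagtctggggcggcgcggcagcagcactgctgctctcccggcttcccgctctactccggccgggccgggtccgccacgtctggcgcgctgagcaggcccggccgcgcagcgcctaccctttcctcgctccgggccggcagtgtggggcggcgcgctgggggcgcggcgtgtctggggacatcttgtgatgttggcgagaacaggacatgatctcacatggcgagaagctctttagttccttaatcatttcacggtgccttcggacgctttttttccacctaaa
ZIC1: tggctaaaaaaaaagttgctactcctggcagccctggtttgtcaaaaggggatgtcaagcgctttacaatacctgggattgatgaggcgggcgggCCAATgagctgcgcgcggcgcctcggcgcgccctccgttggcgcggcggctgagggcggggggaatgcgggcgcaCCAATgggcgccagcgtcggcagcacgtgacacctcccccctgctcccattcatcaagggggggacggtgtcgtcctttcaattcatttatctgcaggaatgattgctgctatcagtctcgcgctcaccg
FREM1 holds a CCAAT box on the minus strand, 72 bases before the start, in a window of 37% G and C. PAX5 holds a TATA box 238 bases before the start, in a window of 65% G and C. ZIC1 holds CCAAT boxes at 155 and at 80 bases before the start, in a window of 61.3% G and C. The CCAAT box matched in 34.6% and the TATA box in 11.5% of 35116 promoters of the same length. The full and short cyclic AMP elements, the antioxidant core and the homeodomain core had no match in these 3 windows, against 1.85%, 24.6%, 13.3% and 4.84% of all promoters.

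Among the EBF genes, which encode helix-loop-helix factors of neurons leaving the cell cycle, 3 of 4 were called lower, against 0.833% of all genes. EBF2 stood at 0.46, 0.414 and 0.268 CPM against 3.45, 16.5 and 6.57 CPM, with vehicle at 1.28, 3.49 and 2.18 (log2 difference -4.52 ± 0.53, adjusted p = 0.000309). EBF3 stood at 10.5, 8.55 and 7.3 CPM against 21.9, 106 and 60.1 CPM, with vehicle at 13.6, 18 and 17.8 (log2 difference -2.84 ± 0.37, adjusted p = 0.000556). EBF1 stood at 3.74, 2.76 and 3.02 CPM against 6.14, 16.3 and 17.2 CPM, with vehicle at 4.02, 4.38 and 5.75 (log2 difference -2.06 ± 0.39, adjusted p = 0.0136). In each gene the acute libraries spread several-fold, library 13 was the lowest of them, and no chronic library reached an acute one. Vehicle library 17 overlapped the acute range of EBF2. EBF1 lost its call without library 11, 12, 14 or 15 (adjusted p 0.00169 to 0.0744), while EBF2 and EBF3 passed in all 6 fits. EBF4, the remaining member, had a log2 difference of 0.28 (adjusted p = 0.672).

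Genes of the midbrain and the floor plate, the ventral midline that secretes sonic hedgehog, were lower as well. Of 12 tested, 6 were called and all 6 were lower, against 0.833% of all genes, and the median of the 12 was -1.34. EN2 and EN1 are homeobox factors of the midbrain-hindbrain region. EN2 stood at 0.985, 0.621 and 0.603 CPM against 7.79, 22.6 and 6.63 CPM, with vehicle at 9.25, 2.22 and 5.59 (log2 difference -4.06 ± 0.57, adjusted p = 0.00149). EN1 stood at 0.722, 0.207 and 0.536 CPM against 2.28, 14.4 and 5.05 CPM, with vehicle at 8.58, 4.32 and 5.49 (log2 difference -3.87 ± 0.64, adjusted p = 0.00623). LMX1A and LMX1B are LIM-homeobox factors of midbrain dopamine neuron precursors. LMX1A stood at 1.64, 1.17 and 0.536 CPM against 18.9, 22.3 and 7.01 CPM, with vehicle at 10.1, 36.3 and 27.7 (log2 difference -3.84 ± 0.63, adjusted p = 0.00534). LMX1B stood at 5.71, 9.79 and 7.64 CPM against 17.2, 21.9 and 17.5 CPM, with vehicle at 18, 18.6 and 13.7 (log2 difference -1.29 ± 0.29, adjusted p = 0.0389). FOXA1 is a forkhead factor of the floor plate. It stood at 7.29, 5.31 and 3.48 CPM against 19.5, 40.9 and 19.3 CPM, with vehicle at 25.6, 34.9 and 32.1 (log2 difference -2.31 ± 0.44, adjusted p = 0.0139). For these 5 genes and WNT5A, described with the Wnt genes, no chronic library reached an acute one. FOXA1 lost its call without library 12 or 14 (adjusted p 0.0151 to 0.119) and LMX1B without library 10, 12, 13, 14 or 15 (adjusted p 0.0326 to 0.226), while EN1, EN2 and LMX1A passed in all 6 fits. SHH itself stood at 14.3, 8.21 and 12 CPM against 10, 12.9 and 12.8 CPM and the groups overlapped (log2 difference -0.05 ± 0.30, adjusted p = 0.968).

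Wnt signalling genes included 5 lower ones among 35 tested, against 0.833% of all genes, and the median of the list was -0.46. WNT5A, a ligand of the non-canonical branch, stood at 3.35, 2.55 and 3.55 CPM against 10.3, 16.8 and 10.8 CPM, with vehicle at 9.98, 17.2 and 13.8 (log2 difference -2.00 ± 0.31, adjusted p = 0.00398). RSPO2 and RSPO3 encode R-spondins, secreted enhancers of Wnt signalling. RSPO2 stood at 4.6, 5.1 and 6.23 CPM against 28.7, 33.4 and 15.4 CPM (log2 difference -2.28 ± 0.45, adjusted p = 0.0156) and RSPO3 at 0.197, 0.965 and 0.603 CPM against 2.48, 2.45 and 3.22 CPM (log2 difference -2.20 ± 0.37, adjusted p = 0.00623). APCDD1, a Wnt inhibitor, stood at 14.7, 17.7 and 14.3 CPM against 29.5, 39.3 and 24.5 CPM, a 2-fold difference (adjusted p = 0.0211). FZD10, a receptor, stood at 0.985, 0.621 and 0.469 CPM against 1.52, 8.69 and 2.27 CPM, with library 14 far above the rest (log2 difference -2.59 ± 0.62, adjusted p = 0.0495). A ligand, 2 enhancers, an inhibitor and a receptor were thus lower together. WNT5A and RSPO3 passed whichever library was left out. RSPO2 lost its call without library 10, 11, 12 or 14 (adjusted p 0.0116 to 0.0881), APCDD1 without library 10, 12 or 14 (adjusted p 0.0171 to 0.209) and FZD10 without library 10, 11, 12 or 14 (adjusted p 0.0198 to 0.536).

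The hedgehog list gave 1 called gene in each direction among 19 tested, against 0.833% of all genes lower and 0.116% higher. Of the 19, 13 had negative and 6 positive values, with a median of -0.49, and 10 had an unadjusted p under 0.05. GLI3, which acts mainly as a repressor of hedgehog targets, stood at 1.58, 1.72 and 1.88 CPM against 4.14, 11.9 and 6.63 CPM, with vehicle at 3.16, 3.56 and 3.57 (log2 difference -2.15 ± 0.32, adjusted p = 0.00249). It passed whichever library was left out. The other was ARHGAP36, described with the higher genes. PTCH1 and GLI1, direct targets of the pathway, had log2 differences of -0.59 (adjusted p = 0.226) and 0.08 (adjusted p = 0.972).

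Among genes of glutamatergic and dorsal forebrain cells, 5 of 25 tested were called lower, against 0.833% of all genes. These 5 were scarce, at 11.6 CPM or below in each of the 6 libraries. The whole list summed to 371, 342 and 381 CPM in the chronic libraries and 421, 438 and 421 in the acute ones. PRDM8, a transcriptional regulator of neurons, stood at 2.17, 3.31 and 2.68 CPM against 7.03, 11.6 and 8.65 CPM, with vehicle at 6.02, 4.32 and 3.57 (log2 difference -1.75 ± 0.26, adjusted p = 0.00249). NEUROD1, a proneural factor, stood at 1.18, 0.69 and 1.34 CPM against 3.59, 10.3 and 3.35 CPM, with vehicle at 2.92, 3.18 and 4.58 (log2 difference -2.43 ± 0.40, adjusted p = 0.00577). DMRTA2, a cortical progenitor factor, stood at 0.722, 0.896 and 0.268 CPM against 5.38, 8.43 and 2.27 CPM (log2 difference -3.09 ± 0.55, adjusted p = 0.00739). NEUROG2, a proneural factor of cortical progenitors, had 2, 2 and 1 counts in the chronic libraries and 2.55, 3.54 and 1.01 CPM in the acute ones (adjusted p = 0.00739). NEUROD2, a factor of cortical neurons, had 0, 1 and 0 counts and 0.207, 2.08 and 1.96 CPM (adjusted p = 0.0104). Of the list, 21 genes had negative values, with a median of -0.61. DMRTA2 lost its call without library 12 or 14 (adjusted p 0.00221 to 0.0647), NEUROG2 without library 12 or 14 (adjusted p 0.00304 to 0.0619) and NEUROD2 without library 11, 12 or 14 (adjusted p 0.000371 to 0.0647). Among 32 ventral forebrain factors, EBF1 and FOXP1 were called, both lower, against 0.833% of all genes. Of the 32, 21 had negative values, with a median of -0.32. FOXP1, a factor of striatal neurons, stood at 20, 15.4 and 15.5 CPM against 27, 36.8 and 28.2 CPM (log2 difference -0.86 ± 0.19, adjusted p = 0.0354), and it lost its call without library 11, 12, 14 or 15 (adjusted p 0.0318 to 0.264).

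**Figure D2:**
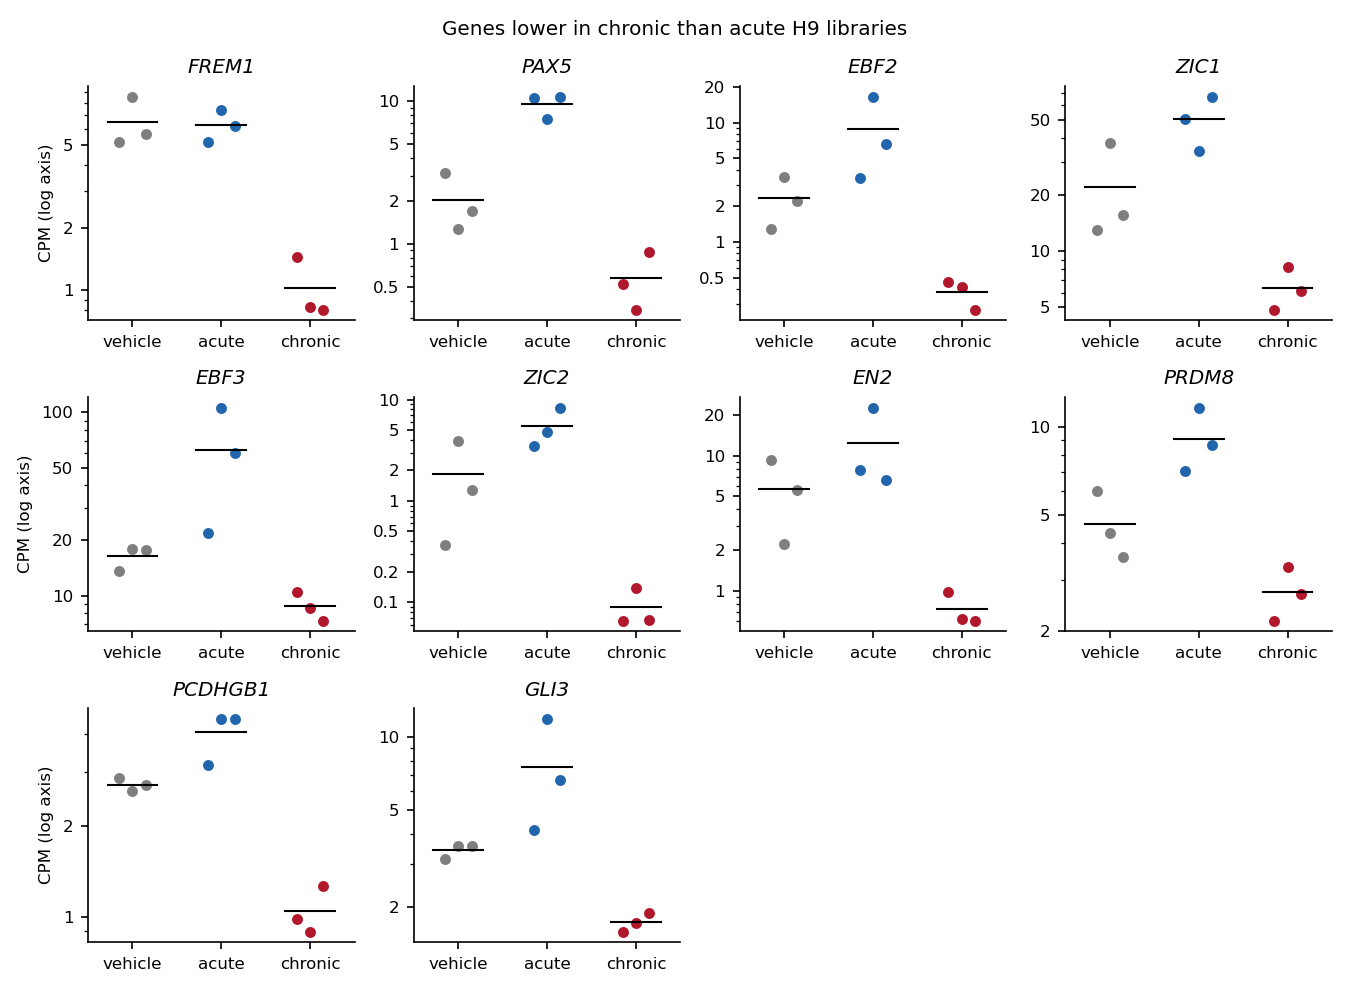
CPM on a log axis in each H9 library for 10 of the 12 genes with the smallest p among those lower in chronic organoids, in 1 panel per gene, with points for the 3 vehicle, 3 acute and 3 chronic libraries and a line at each group mean. In every panel the chronic points lie below all acute points. FREM1 varies little within its groups, while EBF3 runs from 21.9 to 106 CPM among the acute libraries.

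Progenitor lists gave 1 or 2 lower calls each, against 0.833% of all genes. Among 22 radial glia markers, GLI3 and PROM1 were called, and 17 of 22 had negative values with a median of -0.34. PROM1, which encodes the stem cell surface protein prominin-1, stood at 1.84, 1.38 and 1.61 CPM against 3.52, 3.75 and 4.04 CPM (log2 difference -1.22 ± 0.24, adjusted p = 0.018). Of 18 Notch pathway genes, 15 were negative with a median of -0.47, and the ligand JAG1 was called, at 34.7, 25.4 and 35.4 CPM against 51.6, 71.5 and 49 CPM (log2 difference -0.85 ± 0.19, adjusted p = 0.0382). Of 31 cell cycle genes, 27 were negative with a median of -0.27, and 1 was called. This was ASPM, a spindle pole protein of dividing progenitors, at 2.95, 2.34 and 3.62 CPM against 6.9, 7.08 and 6.57 CPM (log2 difference -1.20 ± 0.23, adjusted p = 0.0131). TOP2A, a proliferation marker, stood at 11, 13.1 and 19.4 CPM against 23.4, 30.1 and 20 CPM and did not pass (adjusted p = 0.318). PROM1 lost its call without library 11, 12, 14 or 15 (adjusted p 0.0309 to 0.077), JAG1 without library 10, 11, 12 or 14 (adjusted p 0.0417 to 0.295) and ASPM without library 11 or 14 (adjusted p 0.0309 to 0.0634).

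All 17 motile cilia genes tested had negative values, with a median of -0.82, and all 17 were negative whichever library was left out. FOXJ1, the master factor of motile cilia, stood at 2.89, 4.97 and 4.42 CPM against 9.93, 18.2 and 6.76 CPM, with vehicle at 15.4, 15.1 and 11.1 (log2 difference -1.51 ± 0.36, adjusted p = 0.0473). CFAP126, a ciliary protein, stood at 3.35, 4.55 and 3.62 CPM against 9.72, 16.2 and 6.32 CPM, with vehicle at 13.1, 14.5 and 8.63 (log2 difference -1.49 ± 0.32, adjusted p = 0.0274). These 2 were the called members, against 0.833% of all genes called lower. Summed over 19 cilia genes, the chronic libraries held 77, 78.6 and 83.3 CPM, the acute ones 120, 175 and 104 and vehicle 146, 156 and 129. The chronic sums lay below every acute and vehicle sum. FOXJ1 lost its call without library 10, 11, 12, 13 or 14 (adjusted p 0.0218 to 0.418) and CFAP126 without library 10, 11, 12 or 14 (adjusted p 0.00788 to 0.259).

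Collagens and other mesenchyme genes varied by library within the acute group. COL3A1, a fibrillar collagen of connective tissue, had 3, 1 and 6 counts in the chronic libraries. It stood at 26.8, 48.1 and 9.54 CPM in the acute libraries and at 0.608, 72.8 and 54.4 in vehicle (adjusted p = 0.0131). Vehicle library 16 lay near the chronic libraries, and vehicle libraries 17 and 18 lay above all 6 libraries compared. COL1A1 stood at 1.31, 1.1 and 1.14 CPM against 52.8, 17.4 and 3.85 CPM, with vehicle at 1.03, 154 and 128 (adjusted p = 0.0735). HBB stood at 0.0608, 25.3 and 97.4 CPM in vehicle and so was high in the same vehicle libraries, and among the acute libraries in 13 alone. In acute library 14 HBB had 0 counts and COL3A1 stood at 48.1 CPM. Without library 13 COL3A1 passed with an adjusted p of 0.0189. Whether HBB and the collagens came from the same cells was not tested. COL5A1, a fibril-regulating collagen, was steadier, at 6.57, 5.52 and 5.56 CPM against 11.9, 16.4 and 14.3 CPM (log2 difference -1.27 ± 0.24, adjusted p = 0.0115). These 2 collagens were the called members among 29 mesenchyme genes tested, against 0.833% of all genes called lower. Of the 29, 24 were negative, with a median of -0.76. The summed level of the list was 858, 1040 and 883 CPM in the chronic libraries, 1090, 1240 and 961 in the acute ones and 1120, 1720 and 1530 in vehicle, so the groups overlapped. COL3A1 lost its call without library 10, 11, 12 or 14 (adjusted p 0.00994 to 0.0779) and COL5A1 without library 12 or 14 (adjusted p 0.0125 to 0.0742).

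HOX genes were high mainly in library 15. HOXB8, HOXB9, HOXC4 and HOXC10 were the 4 called of 14 tested, against 0.833% of all genes called lower. HOXC10 stood at 0, 0.069 and 0.335 CPM against 2.28, 0.416 and 19.9 CPM (adjusted p = 0.025), and HOXC4 at 0, 0.069 and 0.067 CPM against 0.896, 0.677 and 6 CPM (adjusted p = 0.0139). HOXB8 stood at 0.69, 0.26 and 24.8 CPM in the acute libraries with 0, 0 and 1 counts in the chronic ones (adjusted p = 0.0462). HOXB9 had no count in the chronic libraries (adjusted p = 0.0495). Without library 15 none of the 4 passed, and HOXC4 lost its call without library 10, 11, 12 or 15 (adjusted p 0.00677 to 0.0794), HOXC10 without library 10, 11, 12 or 15 (adjusted p 0.00438 to 0.193), HOXB8 without library 10, 11, 12 or 15 (adjusted p 0.0207 to 0.5) and HOXB9 without library 10, 11, 12 or 15 (adjusted p 0.0292 to 0.295). Summed over 38 HOX genes, library 15 held 238 CPM, the other acute libraries 31.7 and 17, the chronic ones 11.9, 14.2 and 12.9 and vehicle 14.8, 12.4 and 13.8. TFAP2B, a neural crest factor, was high mainly in library 14, at 0.138, 22.9 and 5.94 CPM in the acute libraries with 0, 1 and 0 counts in the chronic ones (adjusted p = 0.00993), and it lost its call without library 11, 12 or 14 (adjusted p 0.000195 to 0.0682).

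Clustered protocadherins are cell surface proteins that give neurons an individual identity. In the gamma cluster 2 of 22 tested were called lower, against 0.833% of all genes. PCDHGB1 stood at 0.985, 0.896 and 1.27 CPM against 3.17, 4.48 and 4.49 CPM, with vehicle at 2.86, 2.6 and 2.72 (log2 difference -1.94 ± 0.29, adjusted p = 0.00249). PCDHGB7 stood at 6.7, 4.69 and 4.89 CPM against 17, 17.4 and 15 CPM (log2 difference -1.60 ± 0.33, adjusted p = 0.0236). Genes of this cluster share their last exons, so the division of reads between them is uncertain. PCDHGB7 lost its call without library 11, 12, 13 or 14 (adjusted p 0.0359 to 0.111), while PCDHGB1 passed in all 6 fits.

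The 20 higher genes were led by ARHGAP36, HCRT and ME3. ARHGAP36 encodes an inhibitor of protein kinase A that activates hedgehog target genes in other systems, and it is strongly expressed in the hypothalamus. It stood at 148, 138 and 134 CPM in the chronic libraries, at 70.1, 57.2 and 82.6 in the acute ones and at 84.4, 77.6 and 88.2 in vehicle. The chronic libraries lay above both other groups, and vehicle overlapped acute. Chronic was 2-fold higher than acute (log2 1.00 ± 0.17, adjusted p = 0.00618). HCRT encodes the precursor of the orexins, neuropeptides of the lateral hypothalamus. It stood at 16.5, 22.2 and 18.2 CPM against 7.45, 4.48 and 4.55 CPM, with vehicle at 12.8, 10.6 and 10.3 between the groups. Chronic HCRT was 3.47-fold higher than acute (log2 1.79 ± 0.31, adjusted p = 0.00666). ME3, a mitochondrial malic enzyme, stood at 22.7, 24.2 and 24.9 CPM against 12.1, 10.9 and 13.5 CPM, with vehicle at 16.9, 12.7 and 15.3 (log2 difference 0.97 ± 0.17, adjusted p = 0.00666). All 3 passed without each of the other libraries but not without library 14, where ARHGAP36 had an adjusted p of 0.0557, HCRT of 0.0557 and ME3 of 0.06. DESeq2 called no gene higher, with an adjusted p of 0.0659 for ARHGAP36, 0.389 for ME3 and 1 for HCRT. Across all alternative settings the log2 difference ran from 0.88 to 1.17 for ARHGAP36 and from 1.44 to 2.07 for HCRT.

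The promoters of ARHGAP36 and HCRT are shown for comparison with those of the lower genes, from the same source and with the same motifs in capitals. ARHGAP36 lies on the plus strand at chrX:131058096-131058395 and HCRT on the minus strand at chr17:42185403-42185702.
ARHGAP36: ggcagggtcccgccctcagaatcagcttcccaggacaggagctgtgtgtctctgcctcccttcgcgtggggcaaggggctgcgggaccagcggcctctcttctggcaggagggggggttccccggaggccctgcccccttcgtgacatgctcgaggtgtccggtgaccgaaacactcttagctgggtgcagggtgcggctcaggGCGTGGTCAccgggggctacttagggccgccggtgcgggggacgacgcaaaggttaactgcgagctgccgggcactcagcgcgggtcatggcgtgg
HCRT: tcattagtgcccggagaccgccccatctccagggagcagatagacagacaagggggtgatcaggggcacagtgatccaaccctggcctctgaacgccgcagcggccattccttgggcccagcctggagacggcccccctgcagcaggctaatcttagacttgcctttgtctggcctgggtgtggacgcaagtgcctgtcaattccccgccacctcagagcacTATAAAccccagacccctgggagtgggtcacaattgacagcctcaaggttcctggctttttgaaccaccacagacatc
ARHGAP36 holds the antioxidant core on the minus strand, 46 bases before the start, in a window of 68.7% G and C. HCRT holds a TATA box 28 bases before the start, in a window of 59.3% G and C. Neither window matched a cyclic AMP element of either form or the homeodomain core.

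The other hypothalamic genes gave no higher call. Of 24 tested, HCRT was the 1 called higher and 4 were lower, namely LMX1A, LMX1B, IRX5 and SOX14. Over all genes, 0.116% were called higher and 0.833% lower. IRX5, an Iroquois homeobox factor, stood at 3.28, 3.65 and 1.68 CPM against 5.93, 16.4 and 9.1 CPM (log2 difference -1.87 ± 0.31, adjusted p = 0.00534), and SOX14, a factor of diencephalic interneurons, at 2.04, 1.79 and 1.68 CPM against 3.72, 7.75 and 5.81 CPM (log2 difference -1.65 ± 0.37, adjusted p = 0.0402). PMCH, the precursor of melanin-concentrating hormone in neighbouring neurons of the lateral hypothalamus, stood at 48.2, 77.2 and 50.3 CPM against 113, 63 and 27.6 CPM and the groups overlapped (adjusted p = 0.851). IRX5 passed whichever library was left out, and SOX14 lost its call without library 10, 11, 12, 14 or 15 (adjusted p 0.0233 to 0.288).

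Secretory granule genes gave 2 higher members of 18 tested, PTPRN and VGF, against 0.116% of all genes called higher. Of the 18, 13 had positive values, with a median of 0.22. PTPRN encodes a membrane protein of dense-core vesicles and VGF a neuropeptide precursor that is induced by cyclic AMP and growth factors. PTPRN stood at 349, 431 and 321 CPM against 230, 196 and 225 CPM, with vehicle at 259, 216 and 289 (log2 difference 0.76 ± 0.17, adjusted p = 0.0389). VGF stood at 347, 706 and 438 CPM against 248, 232 and 241 CPM, with vehicle at 345, 225 and 276 (log2 difference 1.05 ± 0.24, adjusted p = 0.0402). In both genes library 11 was the highest, and acute libraries overlapped vehicle. PTPRN lost its call without any 1 of the 6 (adjusted p 0.055 to 0.282) and VGF without library 11, 12, 13, 14 or 15 (adjusted p 0.0207 to 0.237). Without library 11 the log2 difference of VGF was 0.71. CHGA, the granule protein chromogranin A, stood at 180, 317 and 211 CPM against 155, 164 and 142 CPM and did not pass (adjusted p = 0.153).

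The remaining higher genes that were named had log2 differences of 0.62 to 1.99. RTL1, an imprinted retrotransposon-derived gene, stood at 55, 50.5 and 62.8 CPM against 37.1, 21.7 and 29.9 CPM (log2 difference 0.93 ± 0.19, adjusted p = 0.0299). GABRE, which encodes the epsilon subunit of the GABA-A receptor, stood at 43.1, 41.1 and 39.1 CPM against 23.4, 17.6 and 22 CPM, with vehicle at 20.5, 20.1 and 31.6 (log2 difference 0.97 ± 0.22, adjusted p = 0.0396). COL9A2, a cartilage-type collagen, stood at 17.9, 20.9 and 14.6 CPM against 10.8, 8.9 and 9.54 CPM (log2 difference 0.87 ± 0.18, adjusted p = 0.023), and EPCAM, an epithelial adhesion protein, at 56.7, 59.1 and 58 CPM against 40.2, 31.2 and 41.6 CPM (log2 difference 0.62 ± 0.14, adjusted p = 0.039). In these 4 genes every chronic library lay above every acute one. RTL1 lost its call without library 10, 12, 14 or 15 (adjusted p 0.0165 to 0.221), GABRE without any 1 of the 6 (adjusted p 0.0579 to 0.268), COL9A2 without library 11, 14 or 15 (adjusted p 0.031 to 0.168) and EPCAM without any 1 of the 6 (adjusted p 0.0574 to 0.298). TNFSF12, a cytokine of the tumour necrosis factor family, stood at 4.53, 9.59 and 6.7 CPM against 2.48, 3.33 and 2.27 CPM with library 11 highest (adjusted p = 0.0434), and SYNE4, a nuclear envelope protein, at 2.36, 2.97 and 1.34 CPM against 0.552, 0.312 and 0.821 CPM (adjusted p = 0.042). TNFSF12 lost its call without library 11, 12, 13, 14 or 15 (adjusted p 0.0254 to 0.199) and SYNE4 without any 1 of the 6 (adjusted p 0.0602 to 0.327).

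**Figure D3:**
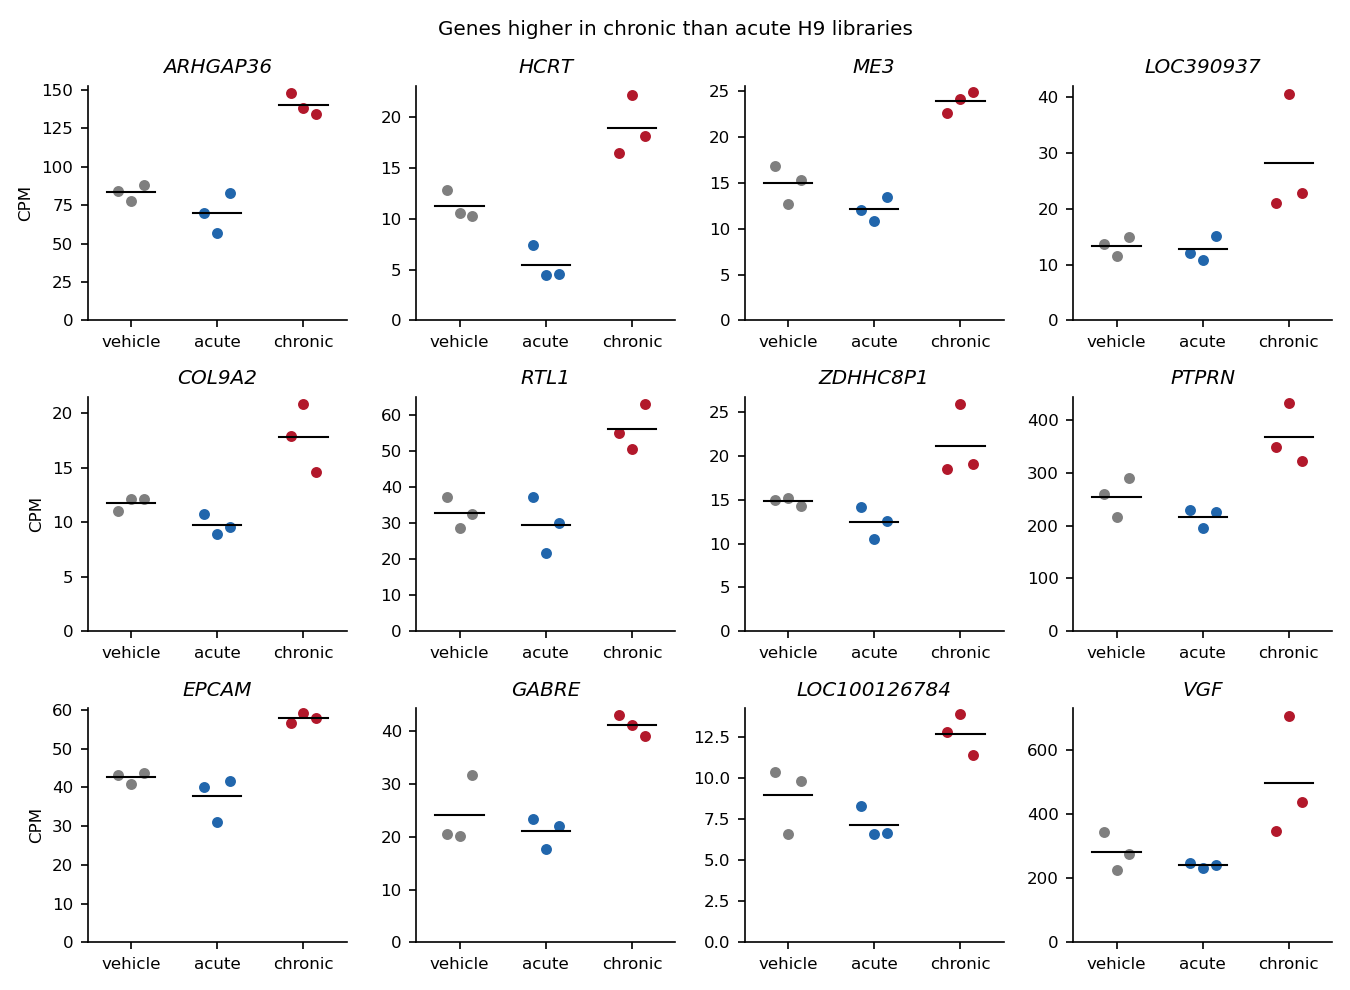
CPM on a linear axis in each H9 library for the 12 genes with the smallest p among those higher in chronic organoids, in 1 panel per gene, with points for the 3 vehicle, 3 acute and 3 chronic libraries and a line at each group mean. In every panel the chronic points lie above all acute points. ARHGAP36 and ME3 vary little among the chronic libraries, while VGF reaches 706 CPM in library 11.

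The dopamine receptors gave no call by edgeR, DESeq2 or limma-voom with quality weights, and 1 of them had an unadjusted p under 0.05 in edgeR. Of 5 receptors 4 had enough counts to be tested, all but DRD3. DRD2 stood highest per unit of length, at 32, 38 and 31 TPM, a unit that corrects for transcript length, in the chronic and 28.2, 22.1 and 24.9 TPM in the acute libraries. DRD5 was at 8.08, 6.92 and 7.99 against 6.12, 4.45 and 6.04 TPM and DRD1 at 5.62, 1.47 and 3.27 against 2.99, 3.34 and 4.39 TPM. In CPM, DRD2 and DRD5 had all 3 chronic libraries above the acute ones, with log2 differences of 0.56 ± 0.22 (adjusted p = 0.308) and 0.59 ± 0.32 (adjusted p = 0.496). Reads of DRD5 may be shared with its near-identical pseudogenes, so its level is uncertain. DRD1 overlapped (log2 difference 0.02 ± 0.34, adjusted p = 0.991), and DRD4 stood at 0.067 to 0.483 CPM across the 6 libraries. TH, tyrosine hydroxylase, which limits the rate at which dopamine is made, stood at 19.8, 30.2 and 18 CPM against 16, 15.3 and 13.5 CPM (log2 difference 0.60 ± 0.22, adjusted p = 0.243). PPP1R1B, the phosphatase inhibitor DARPP-32 that integrates dopamine signals in striatal neurons, stood at 0.0657, 0.759 and 0.134 CPM against 0.621, 1.14 and 2.4 CPM (log2 difference -2.12 ± 0.61, adjusted p = 0.118). Of 24 dopamine signalling genes tested none was called by edgeR and 4 had an unadjusted p under 0.05. DESeq2 called 1 of them lower, and limma-voom with quality weights called 1 higher.

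Immediate early genes, which reflect activity within the last hour, did not pass in either direction. FOS stood at 14, 21 and 22 CPM against 14.8, 11.4 and 13.7 CPM (log2 difference 0.52 ± 0.19, adjusted p = 0.235). NPAS4, an activity-dependent factor of neurons, stood at 6.24, 12.1 and 9.58 CPM against 6.69, 5.41 and 3.47 CPM (log2 difference 0.84 ± 0.28, adjusted p = 0.2). NR4A1 stood at 12.9, 17.4 and 12.8 CPM against 10.8, 8.95 and 11 CPM (log2 difference 0.49 ± 0.20, adjusted p = 0.33), and EGR1 at 3.35, 4 and 4.22 CPM against 2.62, 4.32 and 2.15 CPM (log2 difference 0.33 ± 0.26, adjusted p = 0.65). Chronic and acute libraries overlapped for FOS, NPAS4 and EGR1 and not for NR4A1. Of 38 such genes tested, 28 had positive values with a median of 0.20, none was called by edgeR, 9 had an unadjusted p under 0.05, DESeq2 called 0, and limma-voom with quality weights called 4 higher and 3 lower.

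Antioxidant genes of the NRF2 pathway, which oxidised dopamine can induce, had positive values in 28 of 34 tested with a median of 0.24. None was called by edgeR or DESeq2, and 6 had an unadjusted p under 0.05. NQO1, a quinone reductase, stood at 18.6, 18.7 and 16.7 CPM against 9.86, 10.8 and 13.8 CPM (log2 difference 0.65 ± 0.17, adjusted p = 0.087), and the groups did not overlap. Its adjusted p ran from 0.00729 with quality weights to 1 over the alternatives. HMOX1, haem oxygenase 1, stood at 18, 14.8 and 9.72 CPM against 7.93, 9.26 and 8.02 CPM (log2 difference 0.75 ± 0.23, adjusted p = 0.155). TXNIP, an inhibitor of thioredoxin, stood at 165, 238 and 254 CPM against 389, 447 and 302 CPM (log2 difference -0.79 ± 0.34, adjusted p = 0.361). ME1 and GPX7 were also among the 4 members of the list with the smallest p. Of 25 other settings, ME1 was called higher in 4, NQO1 in 3, GPX7 in 1 and HMOX1 in 0, and TXNIP was called lower in 2. Without library 11, 22 of the 34 were positive, with a median of 0.06.

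The lists of GABA pathway, presynaptic and ion channel genes gave no call by edgeR or DESeq2 either. GABRE, PTPRN and VGF, called higher by edgeR, lie outside these lists. Of 15 GABA pathway genes, 12 were positive with a median of 0.11, of 29 presynaptic genes 20 with a median of 0.17, and of 31 ion channel genes 15 with a median of -0.01. Without library 11 the positive counts were 14, 27 and 26, with medians of 0.28, 0.22 and 0.21. The number of genes with an unadjusted p under 0.05 was 0, 3 and 0. Axon guidance genes were negative in 25 of 29, with a median of -0.29, no call by either tool and 3 unadjusted p under 0.05 in edgeR. With quality weights, limma-voom called 2 presynaptic genes higher and 3 axon guidance genes lower. PDYN and PNOC, precursors of the opioid-family peptides dynorphin and nociceptin, had the smallest p among interneuron peptides. PDYN stood at 96.6, 73.7 and 65.3 CPM against 57.8, 42.3 and 44 CPM (log2 difference 0.71 ± 0.18, adjusted p = 0.0704) and PNOC at 7.03, 12.6 and 8.18 CPM against 4.48, 3.49 and 3.47 CPM (log2 difference 1.28 ± 0.31, adjusted p = 0.0579), without overlap.

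Ribosomal protein and respiratory chain genes turned on library 11. Of 77 ribosomal protein genes, 70 had positive values with a median of 0.12, and 8 were positive without library 11 with a median of -0.14. Their sum was 25000, 36000 and 23300 CPM in the chronic libraries and 24300, 28300 and 25400 in the acute ones. With the size factors of DESeq2, 46 of the 77 were positive with a median of 0.02. Of 75 nuclear-encoded respiratory chain genes, 74 were positive with a median of 0.30, and 57 without library 11 with a median of 0.08. Their sum was 6160, 9090 and 6560 against 6030, 6230 and 5730 CPM, and libraries 10 and 12 lay close to the acute range. No gene of either list was called by edgeR, DESeq2 or limma-voom with quality weights, and 0 and 10 had an unadjusted p under 0.05 in edgeR. By gene length, the median log2 difference over the 15253 tested genes with a length ran from 0.18 in the shortest class to -0.14 in the longest, and it was 0.01 in all 4 classes without library 11. From short to long, 3, 20, 24 and 39 of the 86 called lower genes with a length fell in the 4 classes, and 6, 8, 4 and 1 of the 19 called higher genes. The part of library 11's length pattern in those numbers was not tested.

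**Figure D4:**
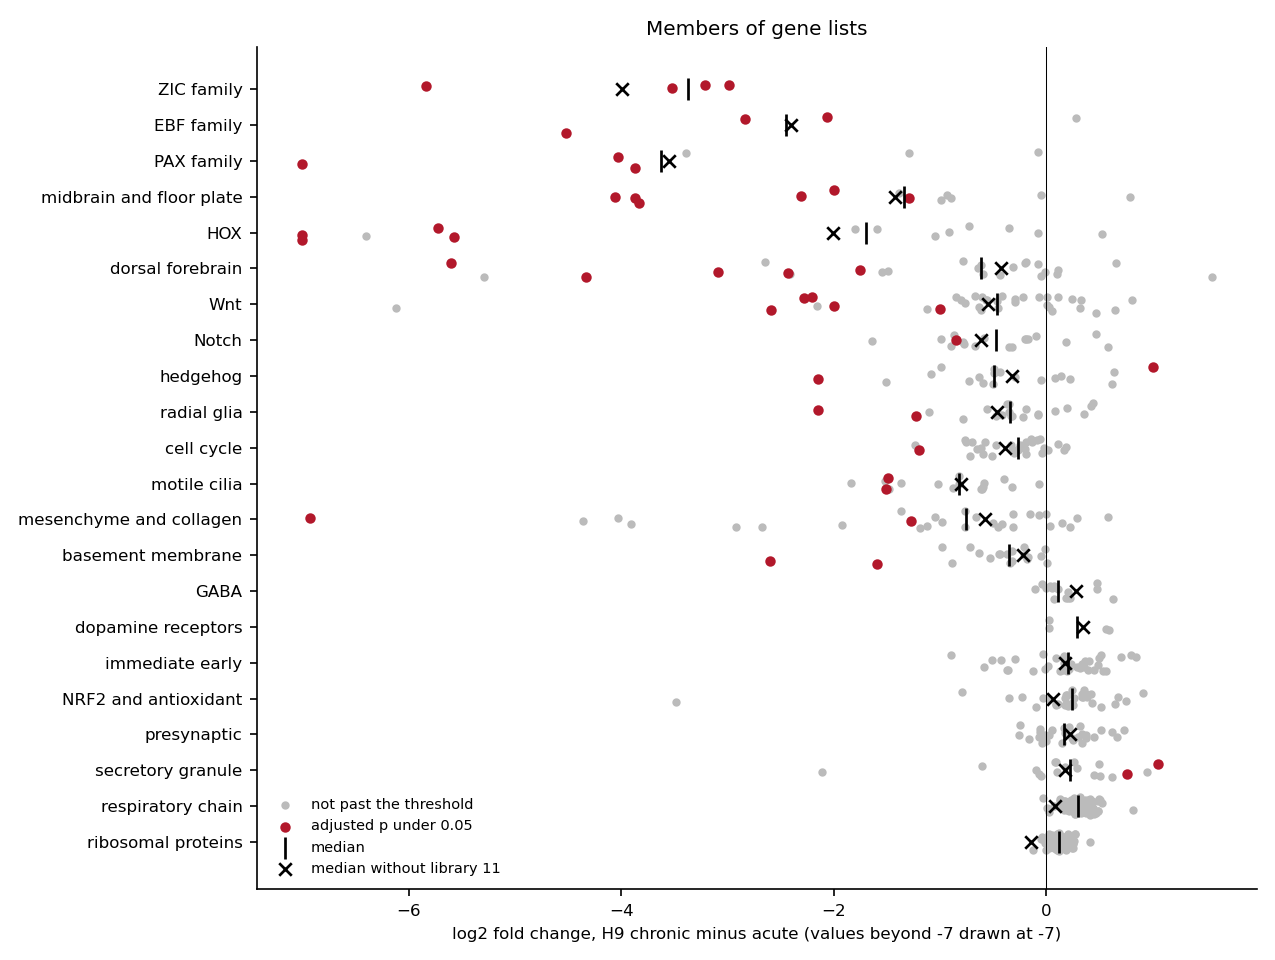
Each point is the log2 difference, chronic minus acute, of 1 tested gene of a list, with called genes in red, a bar at the list's median and a cross at its median without library 11. Values beyond -7 are drawn at -7. The ZIC, PAX and midbrain lists lie far to the negative side with and without library 11, while the crosses of the ribosomal protein and respiratory chain lists move to -0.14 and 0.08.

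The same contrast in H1 organoids, 3 chronic against 3 acute libraries, called 22 genes, 0.128%. Of the 143 genes lower in H9, 49 had negative and 94 positive values in H1, and of the 20 higher in H9, 10 had positive values. The shares of negative and positive H1 values over all genes tested were not computed, so these counts only describe the called genes. Tested directly, the difference between the lines passed for 80 genes, 0.466%, of which 74 (0.431%) were more negative in H9 and 6 (0.0349%) more positive. Of the 80, 45 were among the lower and 2 among the higher H9 genes. The line difference contains the H9 difference by which those genes were called, so this overlap is partly fixed by that choice. The mean level of ZIC1 in H1 was 38.3 ± 8.83 CPM in the chronic and 31.5 ± 10 CPM in the acute libraries (SD, n = 3), and its H1 log2 difference was 0.28 (line difference -3.26, adjusted p = 0.00671). FREM1 was at 10.5 ± 0.794 against 9.95 ± 2.13 CPM in H1 (line difference -2.67, adjusted p = 0.00269). Levels in the dopamine-treated libraries also differed between the lines, as in NEUROD2 and HCRT. NEUROD2, the cortical factor near 0 in H9, was at 348 and 451 CPM in H1, and HCRT, at 4.48 to 7.45 CPM in the acute H9 libraries, was at 0.0189 and 0.0216 CPM in H1.

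**Figure D5:**
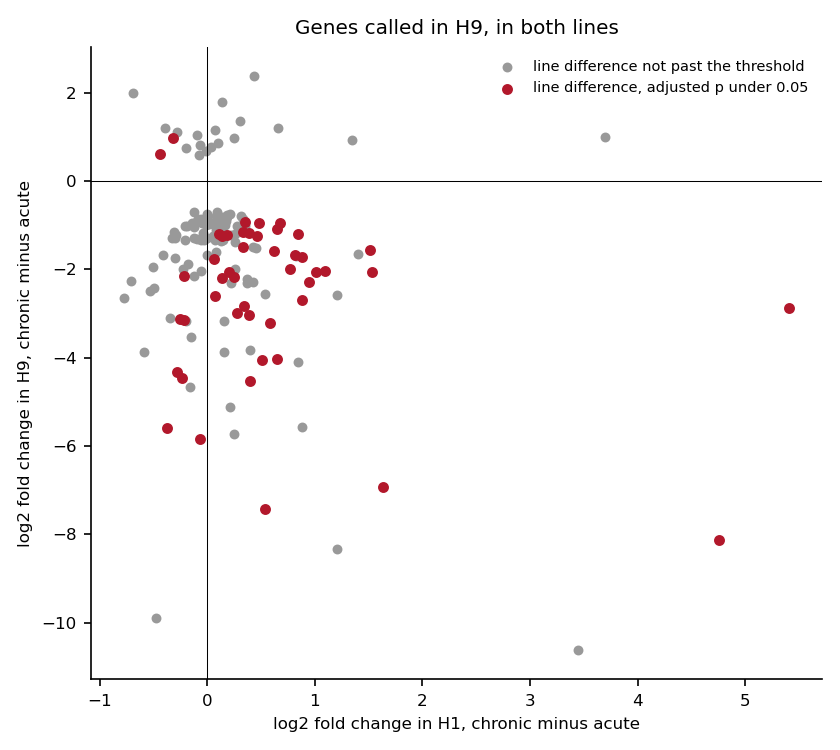
Log2 difference, chronic minus acute, in H1 (horizontal axis) and in H9 (vertical axis) for the 163 genes called in H9, with red points where the difference between the lines passed. The lower H9 genes spread around 0 in H1, with 49 of 143 negative there, and the share over all genes was not computed.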

How the data were processed

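RNA of 18 organoid libraries was sequenced as poly(A) RNA with strand-specific, paired-end libraries, per the labels' protocols. The deposited tables give raw read counts per gene, made by the authors, and TPM values, which the authors scaled by gene length. Per the submitters' processing notes the genome build was GRCh38 (hg38), and the sources used here do not name the aligner, counter or annotation. Total counts of the 6 compared libraries were 14858983 to 19291741.

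Counts were fitted with edgeR 4.0.16 in R 4.3.3: filterByExpr over the 6 groups of the 18 libraries, which left 17173 of 53853 entries, TMM scaling, glmQLFit and glmQLFTest, with the contrast H9 chronic minus H9 acute. Adjusted p-values are Benjamini-Hochberg values over all 17173 genes, and every adjusted p in the text comes from this test unless another is named. H1 and vehicle libraries took no part in this contrast, but they entered the gene filter, the scaling and the estimate of the spread. The SE of a log2 difference is its absolute value divided by the square root of the test's F statistic. Each SE therefore rests on the spread in all 18 libraries and not on the 6 compared ones alone. The fit had 12 residual degrees of freedom and a common biological coefficient of variation of 0.175. The difference between lines is the interaction of line and treatment in the same fit. A gene is called at an adjusted p under 0.05. CPM values use the TMM-scaled library sizes.

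Named genes were the 12 with the smallest p in each direction, the 5 with the largest fold among called genes without overlap, both with a mean log2 CPM of at least 0, the 4 with the smallest p in each list and all called members of lists, a fixed set of receptor, activity and stress genes, and the 5 in each direction of the line difference. Other genes in the text were picked with their values known. Members and lists were chosen with earlier results of these data known. Settings tried were other scalings, filters and dispersions, subsets of libraries, DESeq2 1.42.0, limma 3.58.1 on voom or log2 TPM values with pseudocounts of 1 and 0.1, sva 3.50.0 and each library left out. The procedure was tested on simulated counts. Relative gene length came from the ratio of counts to TPM. Promoters were taken from RefSeq, which held 34 of 50 looked up. No mitochondrially encoded gene was analysed here. Gene symbols that a spreadsheet had turned into dates, 28 entries with 0.391% of the counts, stayed in the fit and none was called. Results of a few genes are not reported here.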

Additional observations from a re-analysis of the deposited data

Results flagged for a closer look

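The response to chronic against acute dopamine differed between the H9 and H1 lines for 80 genes in edgeR's test of that difference, and 9 of the 10 named by the rule, the 5 with the smallest p in each direction, are given here on the log2 scale, with the H9 and H1 values after each difference. No explanation was tested for any of them. BTBD11 differed by -2.12 (H9 -0.03, H1 2.09, adjusted p = 0.00242). FREM1 differed by -2.67 (H9 -2.60, H1 0.07, adjusted p = 0.00269), EBF2 by -4.92 (H9 -4.52, H1 0.40, adjusted p = 0.00372) and ZIC1 by -3.26 (H9 -2.98, H1 0.28, adjusted p = 0.00671). In the other direction, KIAA0408 differed by 9.08 (H9 0.31, H1 -8.77, adjusted p = 0.0222), with mean H1 levels of 0.0392 ± 0.0678 CPM in the chronic and 21.7 ± 13.3 CPM in the acute libraries (SD, n = 3). Its fitted fold depends on the prior count, and the gene overlaps another, so its reads are uncertain. SMIM11B differed by 1.86 (H9 0.57, H1 -1.29, adjusted p = 0.0265) and has a near-identical copy, with the same limit. LOC107986606 differed by 1.44 (H9 0.27, H1 -1.17, adjusted p = 0.0347), EPCAM by 1.06 (H9 0.62, H1 -0.44, adjusted p = 0.0379) and CYP4X1 by 0.97 (H9 0.47, H1 -0.50, adjusted p = 0.046). Of 27 other settings, the call was lost in 15 for LOC107986606, 16 for EPCAM, 18 for CYP4X1, 8 for SMIM11B and 7 for KIAA0408, against 2 each for BTBD11, FREM1, EBF2 and ZIC1. In 4 of the 5 with a positive difference the H1 change was the larger of the 2, EPCAM being the exception.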

How the results depend on the processing

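Against 163 calls (20 higher, 143 lower), the comparison gave 306 at an adjusted p under 0.1, 467 with no low-count filter, 254 without library 9, 80 against a minimum fold of 1.2, 71 with 1 surrogate variable (70.4% lower, against 87.7%), 72 with DESeq2 (100% lower), 757 with voom and quality weights (71.7% lower), 28 on log2(TPM + 1), 2 on log2(TPM + 0.1), 10 in the 9 H9 libraries, 3 in the 6 compared libraries and 97 without libraries 11 and 15. Each of the 6 libraries left out in turn gave 47 to 145. Chosen after seeing the data were the 9 H9 libraries without library 11, with 40 calls, and the 6 compared libraries without it, with 38. Of the 163 genes, 64 were called without library 11, 45 without 12, 38 without 14, 84 without 15, 67 without 11 and 15, and 67 by DESeq2. Of the 163 genes, each setting tested 151 to 163, and all of those kept their direction. The difference between lines, 80 calls, gave 187 at an adjusted p under 0.1, 370 with no filter, 27 in the compared libraries only, 33 against a fold of 1.2, 37 with DESeq2, 584 with quality weights, 5 and 1 on the TPM scales with pseudocounts of 1 and 0.1, 92 with 1 surrogate variable (51.1% lower), 246 without libraries 9, 11 and 15 (chosen after seeing the data), 117 without library 9, and 18 to 70 with each of the 12 dopamine libraries left out. The TPM scales moved the median of all genes to -0.107 and -0.132 and the surrogate variable moved it to 0.121. For 240 named genes in the main comparison, 5055 values under other settings stayed on their side of the threshold, 718 lost the call and 162 gained one. Of all these values 87, in 22 genes, had another sign than in the reported fit, and 0 of the 87 were called in either. For the 10 genes of the line difference, 196 stayed and 74 lost the call. Causes were not tested. No paired analysis was possible because the libraries are numbered 1 to 18 and the groups share no replicate number. With 3 libraries a group, genes near the level of 3 counts (0.156 to 0.202 CPM) rest on few reads, and a difference there that did not pass was not detectable at this depth.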
